A study of Mus musculus with 6 samples.

Results

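Cytosolic ribosomal protein genes code for the protein parts of the ribosome that translates nuclear-encoded mRNA. They were taken from the count table by symbol: Rpl or Rps followed by a digit, with Rplp0, Rplp1, Rplp2 and Rpsa added, and with the Rps6k kinases and the pseudogene rows named -ps left out. The rule found 87 of 18560 genes, and the rule uses symbols and no measured value. Of these, 77 code for core proteins, 46 of the large (60S) and 31 of the small (40S) subunit. The other 10 were Rpl3l, Rpl6l, Rpl7l1, Rpl10l, Rpl22l1, Rpl36al, Rpl39l, Rps27l and Rps27rt, which are paralogs, copies or relatives of core genes, and Rps19bp1, which shares the prefix but codes for a protein that binds RPS19. Rpl10l, Rpl3l and Rpl39l were nearly absent from the table.

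A ribosome holds 1 copy of most of these proteins, and the acidic stalk proteins P1 and P2, which help to recruit elongation factors, are present as dimers on P0. The mRNAs of core ribosomal proteins are short, abundant and start with a C followed by a run of pyrimidines, the 5′ terminal oligopyrimidine (TOP) motif, through which mTORC1 and LARP1 set their translation together. The same motif is carried by the mRNAs of several elongation factors. Ribosomal protein mRNA is used in single-cell work both as a sign of translational investment and as a quality measure, since it takes a large part of all molecules counted.

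The cells came from the olfactory bulbs of C57BL/6NJ mice of 14 weeks and were profiled by droplet 3′ single-cell RNA sequencing (10x Genomics), in which each mRNA molecule is counted once by a unique molecular identifier (UMI). There were 3 groups of 2 libraries: control mice labelled as not manipulated, naris-occluded mice, deprived of odor by a plug in the nostril, and trained mice, water-deprived animals that learned to discriminate odorants for a water reward; both manipulations lasted 6 weeks. Each library was a pool of 3 mice, males in replicate 1 and females in replicate 2 of each group. The study describes the occlusion as unilateral, taking the occluded side as deprived and the open side as a control. It also names naive mice as the controls that were sequenced. The labels do not say which tissue the control libraries held. Spread between libraries is therefore the spread between 2 pools that also differed in sex, and the cell clusters are the authors' own, with 22 nonneuronal clusters from the whole-bulb annotation and 18 neuronal clusters (n01 to n18) from the neuron annotation. Some olfactory epithelium was dissected along with the bulb, and the cluster n01-OSNs (olfactory sensory neurons) had the highest levels of Omp, Gng13 and S100a5.

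The libraries held 6705 to 10570 annotated cells with 11841160 to 17065083 UMIs each, and the median cell had 1028 UMIs in trained replicate 1 and 1344.5 to 1723.5 in the other libraries. Trained replicate 1 also had the highest share of mitochondrially encoded UMIs, 13.4%, against 9.76% to 11.9% elsewhere. The markers of the cell types peaked in the clusters named for them with a few exceptions, such as Sox10 in oligodendrocyte precursors. A total of 2956 cells had a barcode that also occurred in another library, and 1123 barcodes had no cluster and were left out. A further 755 cells, neurons by the whole-bulb annotation, had no cluster in the neuron annotation. They count in the shares by library and are in none of the 40 clusters.

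A pyrimidine run near the annotated start was more frequent in the core members than in all genes. The search did not ask for the C at the start itself that the TOP motif has. In the Rpl22l1 window below, the annotated start is a g. A run of at least 6 C or T bases, read on the gene's strand within 5 bases before to 10 bases after the annotated start, was present at any listed start of 25 of 57 core members found in the promoter table (43.9%), of 14.8% of 27025 genes and of 8.70% of 69 genes for mitochondrial ribosomal proteins. The windows below are 30 bases centred on a RefSeq start (GRCm38.p6), with capitals for the bases of a run that lie between 5 bases before and 10 after the start, for 4 members with a run that stand apart from the other members in some clusters and for Rplp0 and Rpl22, 2 members without one.
Rpl15, chr14:18270972-18271001, minus strand: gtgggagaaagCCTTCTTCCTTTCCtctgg
Rps6, chr4:86857353-86857382, minus strand: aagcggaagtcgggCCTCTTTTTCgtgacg
Rpl35a, chr16:33056467-33056496, plus strand: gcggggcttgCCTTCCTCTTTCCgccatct
Rpl22l1, chr3:28805493-28805522, plus strand: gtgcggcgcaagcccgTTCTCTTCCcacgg
Rplp0, chr5:115559452-115559481, plus strand: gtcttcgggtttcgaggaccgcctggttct
Rpl22, chr4:152324421-152324450, plus strand: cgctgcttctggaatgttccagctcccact
Within that stretch Rpl15 had the longest run of the 6, with 14 bases, and the longest runs at Rplp0 and Rpl22 had 3 and 4 bases. Bases beyond it were not counted, so a run can go on past the capitals, as at Rpl15 and Rpl22l1. A match here is a description of an annotated start, and the absence of a run says only that these letters are not in the window.

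Ribosomal protein mRNA made up 9.21% of all UMIs of annotated cells. By replicates 1 and 2, it was 9.05% and 9.12% in control mice, 8.86% and 9.39% after naris occlusion and 9.66% and 9.20% after training. The groups overlapped except that both trained libraries were above both control libraries. Against UMIs of nuclear genes only, which leaves out the 13 mitochondrially encoded genes, the shares were 10.27%, 10.32%, 9.86%, 10.4%, 11.2% and 10.28% in the same order. Trained replicate 1 was then above both control libraries and trained replicate 2 lay between them, so these groups overlapped. With 2 against 2 libraries an exact permutation test cannot give a p below 0.333, so no test was made of these shares. A share over a whole library also mixes cell clusters whose cell numbers differed between libraries. The cluster n13-AstrocyteLike, for example, had 201 to 1202 cells in a library. The part of cell makeup in these shares was not tested.

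The member with the most UMIs was Rps29, a small-subunit protein of the 40S head, with 389042, followed by Rpl41, the smallest large-subunit protein, with 322519. Rps27 had 233930 UMIs, Rpl37a 221020, Rpl37 191192 and Rpl38 175701. These 6 genes took 19.1% of all ribosomal protein UMIs, while the core member with the fewest, Rpl5, which carries 5S rRNA into the large subunit, had 26292 and the median core member 91079. A 3′ UMI count is a count of molecules and not of bases, so these numbers were not divided by length. Rps29 took 4.88% and 5.17% of the module in control, 4.32% and 4.81% in naris-occluded and 5.37% and 4.46% in trained libraries, so both naris-occluded libraries were below both control libraries and the trained libraries lay on both sides of the control libraries. The module is used here for the 87 members together. In n01-OSNs, which had 113 to 288 cells in a library, Rps29 took 9.90% of the module. The part of cell makeup in the Rps29 shares by library was not tested.

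Clusters differed more than libraries did. Over the 40 clusters the median share of all UMIs was 8.44%. Monocytes (Mono) had the highest share, with 20.5% and 22.2% in control, 22.6% and 22.5% in naris-occluded and 22.7% and 21.9% in trained libraries (22.1% ± 0.818, SD, n = 6 libraries). Red blood cells (RBCs) had the lowest share at 2.03% ± 0.770, from 219 cells and as few as 11 in a library. In this cluster the hemoglobin genes Hba-a1 and Hbb-bs had 199183 and 390434 counts per 1e+06 UMIs. These counts are in the denominator of the share, and their part in its low value was not tested. The clusters were made by the authors from the same cells and genes, so differences between clusters are descriptions without a test.

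**Figure D1:**
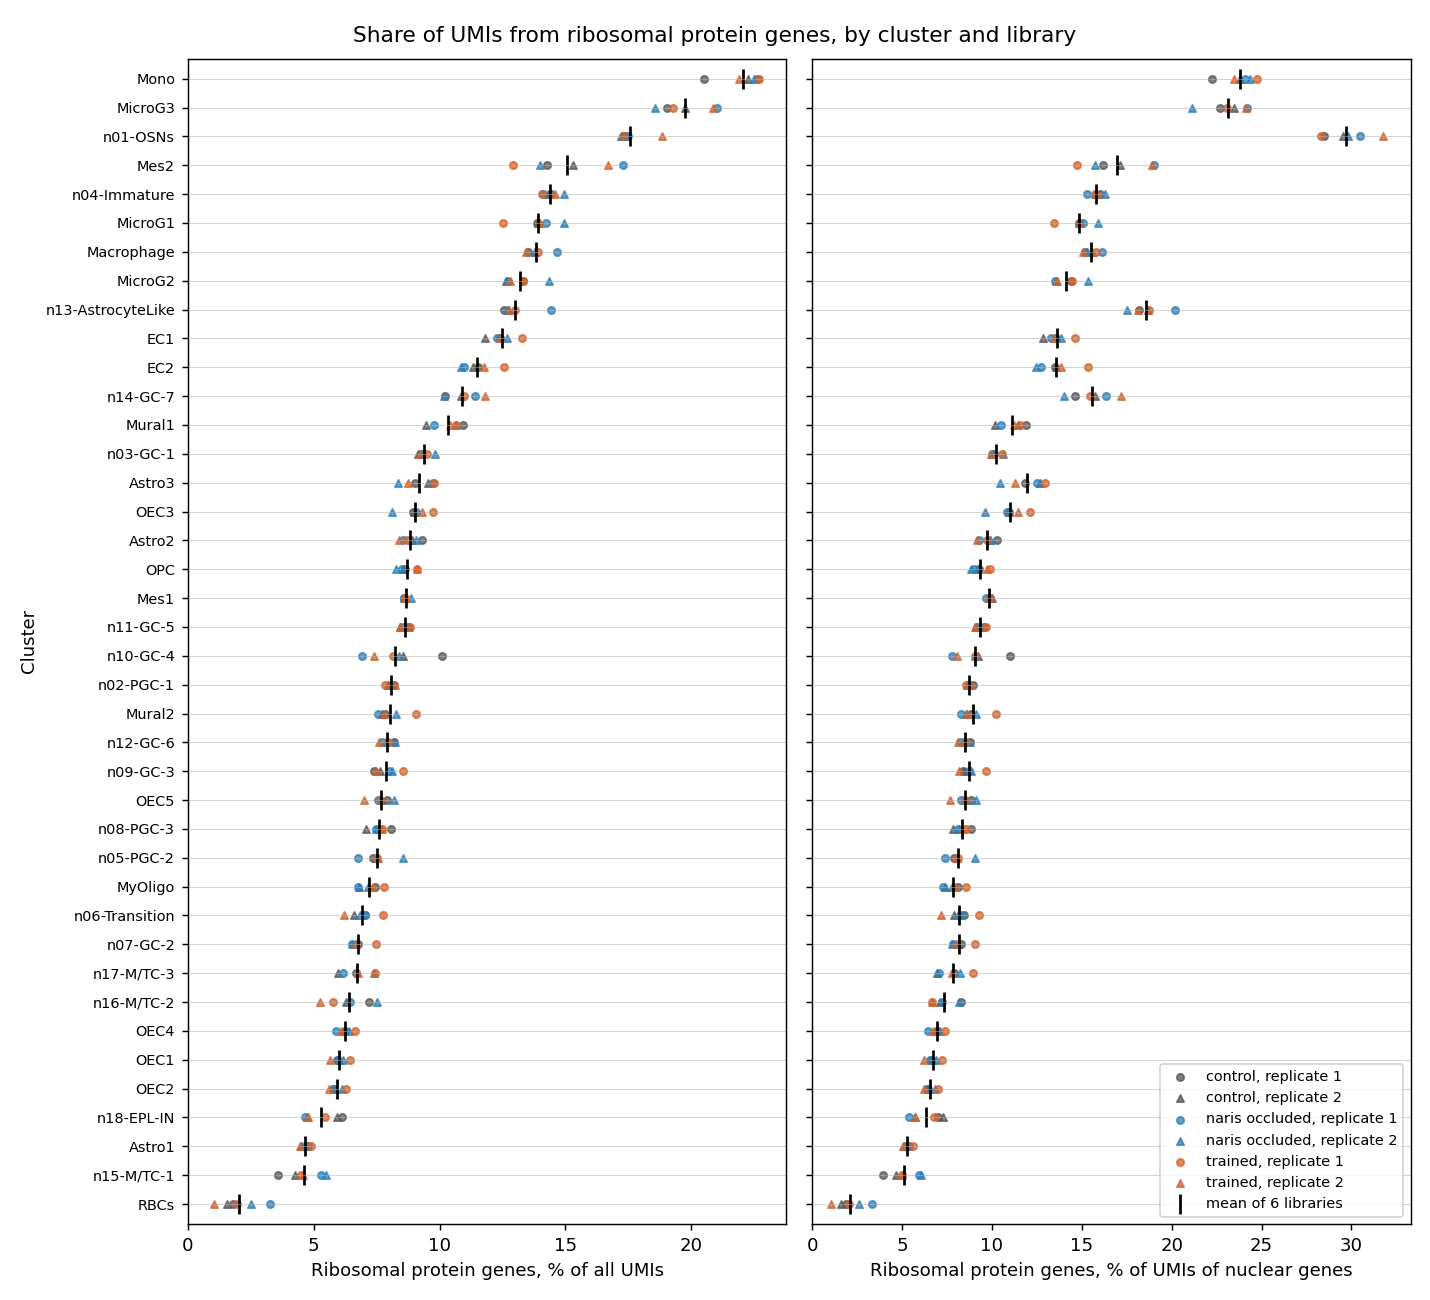
Share of ribosomal protein UMIs in each cluster, in percent of all UMIs (left) and of UMIs of nuclear genes (right), with 1 point for each of the 6 libraries and a bar at their mean. On the left, monocytes lie above and red blood cells below the other clusters, with means of 22.1% and 2.03%, and the libraries of a cluster lie close together against the range over clusters.

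Among immune cells, the microglial cluster MicroG3 followed monocytes at 19.7% ± 0.999, and MicroG1, Macrophage and MicroG2 had 13.9% ± 0.791, 13.9% ± 0.436 and 13.2% ± 0.644. MicroG1 and Macrophage did not differ beyond their spread. MicroG3 had a median of 748 UMIs per cell against 2336 in MicroG1 and 1847 in MicroG2, and a mitochondrial share of 14.6% against 6.20% and 6.68%; the part of depth and mitochondrial RNA in this order was not tested. Of the vascular clusters, the endothelial EC1 and EC2 had 12.5% ± 0.491 and 11.5% ± 0.612, above the mural clusters Mural1 at 10.3% ± 0.572 and Mural2 at 8.05% ± 0.556.

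Among the neuronal clusters of the neuron annotation, the share was highest in n01-OSNs at 17.6% ± 0.626 and in immature neurons (n04-Immature) at 14.4% ± 0.319. In the whole-bulb annotation, the neuronal cluster N3 had 20.4% ± 1.51, with a median of 774 UMIs per cell. In n04-Immature, which had the highest Dcx, Sox11 and Sox4, the libraries gave 14.4% and 14.3% in control, 14.1% and 14.9% in naris-occluded and 14.1% and 14.6% in trained mice. The granule cell clusters n03-GC-1, n11-GC-5, n12-GC-6 and n07-GC-2 had 9.38% ± 0.252, 8.62% ± 0.191, 7.93% ± 0.254 and 6.78% ± 0.357. Mitral and tufted cells, the projection neurons of the bulb, were at the low end, with 6.74% ± 0.616 in n17-M/TC-3, 6.42% ± 0.846 in n16-M/TC-2 and 4.61% ± 0.697 in n15-M/TC-1, and the interneurons n18-EPL-IN had 5.28% ± 0.651. The neighbours n17 and n16, and n18 and n15, did not differ beyond their spread. The clusters n16, n15 and n18 were small, with 116, 90 and 161 cells and as few as 8, 6 and 16 in a library. Glial clusters lay on both sides of the median over clusters. The olfactory ensheathing clusters OEC4, OEC1 and OEC2 had 6.24% ± 0.252, 6.02% ± 0.268 and 5.91% ± 0.245 and astrocytes of Astro1 4.67% ± 0.163, while Astro3, Astro2 and the oligodendrocyte precursors (OPC) had 9.20% ± 0.578, 8.82% ± 0.339 and 8.70% ± 0.341. The olfactory ensheathing cluster OEC3, whose cells were shallower (median 817 UMIs), had 9.02% ± 0.529.

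Mitochondrial RNA moved the value of a few clusters. In n01-OSNs, 40.8% of UMIs were mitochondrially encoded, and the members took 29.7% ± 1.29 of the nuclear UMIs, which was then the highest of all clusters, above 23.8% ± 0.872 in monocytes. In n13-AstrocyteLike and n14-GC-7, with mitochondrial shares of 29.95% and 29.9%, the share was 18.6% in place of 13.01% and 15.6% in place of 10.9% with that denominator. The order of the 40 clusters otherwise stayed close, with a Spearman correlation of 0.989 between both denominators. In the 12 clusters with at least 20 cells both under and from 1000 UMIs in every library, shallow cells had the higher nuclear share in all 6 libraries in 4 clusters, as in n04-Immature (17.8% against 15.7%), and the lower share in all 6 in 2 clusters, EC1 (11.8% against 13.7%) and n01-OSNs (28.3% against 31.6%).

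The balance between subunits varied within narrow limits. Small-subunit genes took 45.1% ± 0.724 of core ribosomal protein UMIs in macrophages and 45.0% ± 0.415 in monocytes, and 39.1% ± 0.789 in oligodendrocyte precursors, the lowest of 40 clusters. The stalk genes Rplp0, Rplp1 and Rplp2 together took 5.32% ± 0.289 in n01-OSNs and 5.02% ± 0.160 in MicroG2, and 3.17% ± 0.138 in n07-GC-2. The low small-subunit share of OPC stood beside a single high large-subunit gene, Rpl13.

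The members did not all follow the module. A member was counted as outlying in a cluster when its share of the module was at least 2-fold above or below the median of the nonneuronal or neuronal clusters, in the same direction in all 6 libraries, with at least 50 UMIs observed or expected in the cluster. This gave 35 pairs of gene and cluster, from 23 members, and 21 of these pairs were in n01-OSNs. Since the members were ranked by these values, the pairs are described and not tested.

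**Figure D2:**
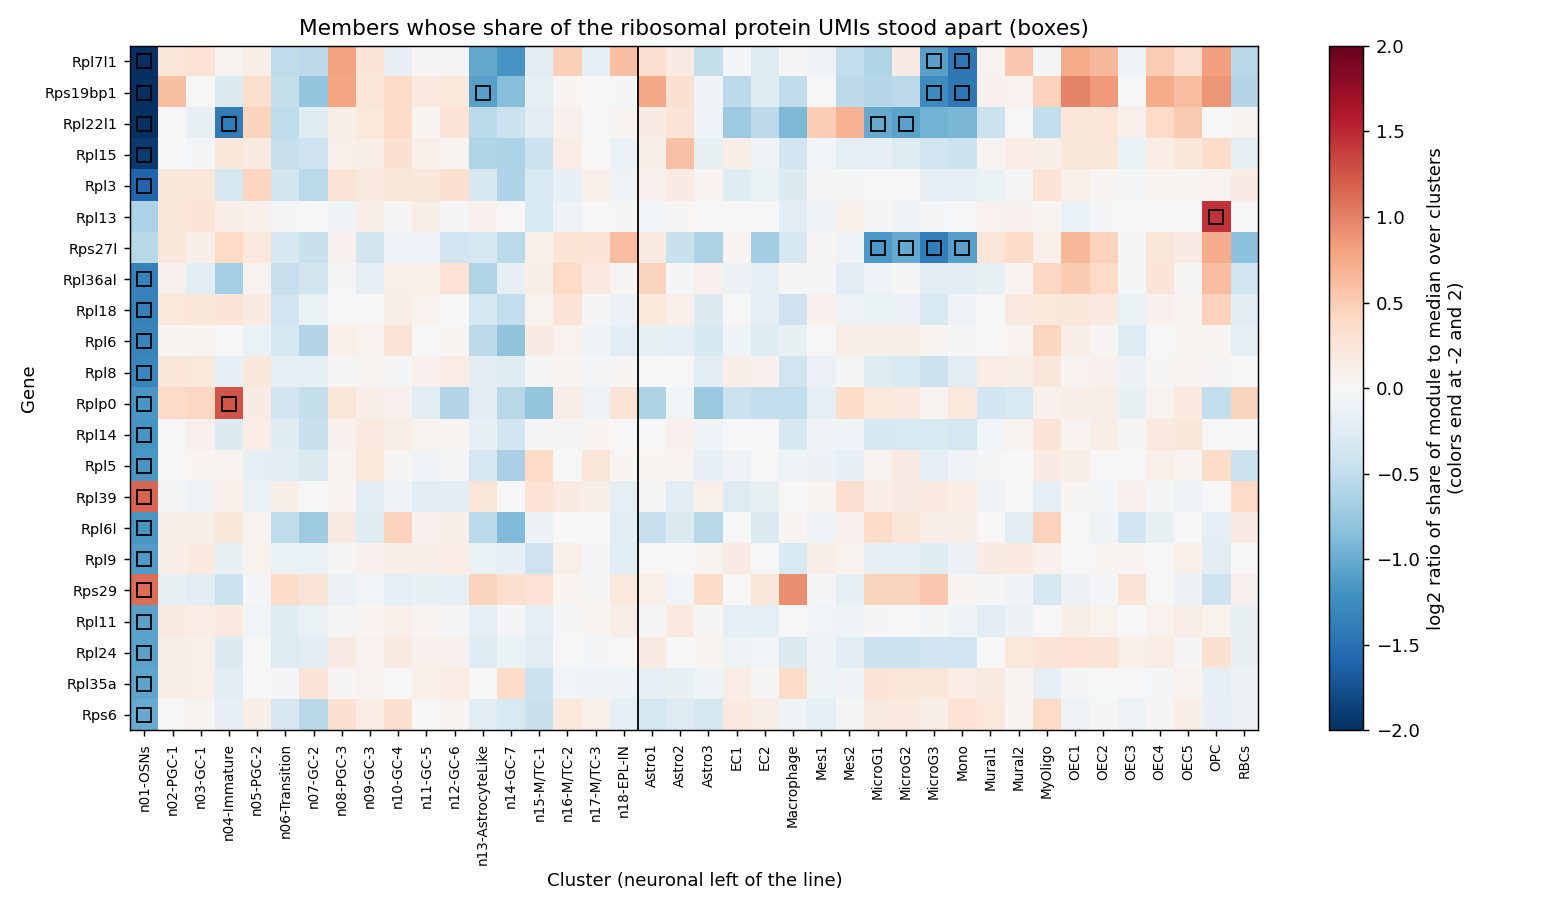
Log2 ratio of 22 outlying members' shares of ribosomal protein UMIs in a cluster to the median over clusters, with members in rows, clusters in columns and boxes around the pairs counted as outlying. Most of the large departures are in the column of olfactory sensory neurons, where Rpl15 is low at -1.92 and Rpl39 is high at 1.16, and Rpl13 stands out in oligodendrocyte precursors at 1.44.

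In oligodendrocyte precursors, Rpl13 (chr8:123102350-123105244), a core protein of the large subunit, took 5.58% of ribosomal protein UMIs against a median of 2.05% over the nonneuronal clusters, a log2 ratio of 1.44 ± 0.138 (SD, n = 6 libraries). Levels in clusters are given as counts per 1e+06 UMIs of nuclear genes (CPM). The level of Rpl13 in oligodendrocyte precursors was 4869 and 4581 CPM in control, 5571 and 5531 after naris occlusion and 5206 and 5574 after training. All 6 libraries were high, and myelinating oligodendrocytes, the later stage of the same lineage, had 1644 ± 98.0 CPM. The next cluster by its share of the module, n03-GC-1, had 2.39% ± 0.0840.

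Immature neurons stood apart through Rplp0 and Rpl22l1. Rplp0, the stalk base on which P1 and P2 dimers sit, had a log2 ratio of 1.26 ± 0.130 in n04-Immature, with 1657 and 1870, 1897 and 2050, and 1687 and 2044 CPM in control, naris-occluded and trained libraries. In the granule cells of n03-GC-1 the same gene had 531 to 758 CPM. Rplp1 and Rplp2 did not share this pattern, with log2 ratios of -0.52 and -0.08 in immature neurons. Rpl22l1, the paralog that can replace Rpl22 in the ribosome, had the opposite direction: its log2 ratio was -1.40 ± 0.139, and its level was 601 ± 60.6 CPM in n04-Immature against 930 ± 21.4 in n03-GC-1, while Rpl22 itself was at 0.43. Rpl22l1 was also low in n01-OSNs (-2.01 ± 0.324), MicroG2 (-1.07 ± 0.143) and MicroG1 (-1.01 ± 0.155), where its share of the module was at least 2-fold under the median of its annotation level. Across clusters its level was highest in the mesenchymal cluster Mes2 at 1999 ± 156 CPM.

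In myeloid cells the low members were mostly paralogs or relatives. Rps27l, the p53-responsive paralog of Rps27, had log2 ratios of -1.36 ± 0.602 in MicroG3, -1.15 ± 0.208 in MicroG1 and -1.08 ± 0.446 in monocytes, and it was just at the 2-fold limit in MicroG2. Its level in MicroG1 was 205 and 223, 198 and 174, and 208 and 168 CPM in control, naris-occluded and trained libraries, and in oligodendrocyte precursors it was 452 ± 76.5. Rps27 itself was at 0.24 in monocytes and -0.07 in MicroG3. Rpl7l1 and Rps19bp1 were both at -1.44 in monocytes, at 67 and 77 UMIs over all libraries, and were low in MicroG3 at -1.09 ± 0.566 and -1.26 ± 0.770. Where a cluster's module is large and a gene's own level is ordinary, its share of the module is small: Rps27l had 322 ± 92.6 CPM in monocytes, above its 196 ± 21.2 in MicroG1.

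Olfactory sensory neurons held 19 low and 2 high members. The high members were Rps29 and Rpl39, a small protein near the end of the peptide exit tunnel. Rps29 reached 27724 and 32200, 29412 and 30618, and 27677 and 29087 CPM in control, naris-occluded and trained libraries, which was 9.90% of the module against a median of 4.56%. The next cluster, MicroG3, had 14890 ± 910 CPM. Rpl39 reached 9810 and 10331 in control, 12824 and 14090 in naris-occluded and 8996 and 9198 in trained libraries, and both naris-occluded libraries were the highest.

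Of the low members in olfactory sensory neurons, Rpl7l1 was the lowest, with 10 UMIs where the median share predicted 106 and a log2 ratio of -3.41 ± 1.16; 2 libraries had no UMI of it. Rps19bp1 had 27 UMIs against 210 (-2.96 ± 0.509). Rpl15 was at -1.92 ± 0.484, with 378 and 405, 281 and 185, and 411 and 433 CPM in control, naris-occluded and trained libraries. Rpl3, which lies at the peptidyl transferase center, was at -1.58 ± 0.179 with 1203 ± 139 CPM. Rpl36al was at -1.35 ± 0.198, while Rpl36a, its near-identical paralog on chromosome X, was at -0.17. Among the others, Rpl18, Rpl6, Rpl8, Rpl14, Rpl5, Rplp0, Rpl6l, Rpl9, Rpl11, Rpl24, Rpl35a and Rps6 were between -1.35 and -1.02. Because the module is so large in these neurons, a low share did not always mean a low level: Rplp0 had 665 ± 55.1 CPM there and 668 ± 83.2 in n03-GC-1, and Rpl3 had less in mitral and tufted cells of n15-M/TC-1 (525 ± 81.9). The cluster n15-M/TC-1 had as few as 6 cells in a library.

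The low members in olfactory sensory neurons had longer coding sequences than the high ones. A coding length was found for 75 of 77 core members (GENCODE vM1, median 459 bases, 156 to 1260). Rpl39 and Rps29 had 156 and 171 bases, Rpl15 had 615, Rplp0 954 and Rpl3 1212. Across these 75 genes the Spearman correlation between coding length and the log2 ratio in n01-OSNs was -0.597. The 38 members with the shorter coding sequences took 70.7% ± 1.15 of the UMIs of the 75 genes there. In the other clusters they took from 54.4% ± 0.948 (myelinating oligodendrocytes) to 64.4% ± 0.423 (n14-GC-7). Correlations across genes are descriptions here, since genes are not replicates and share the libraries and depth of a cluster.

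**Figure D3:**
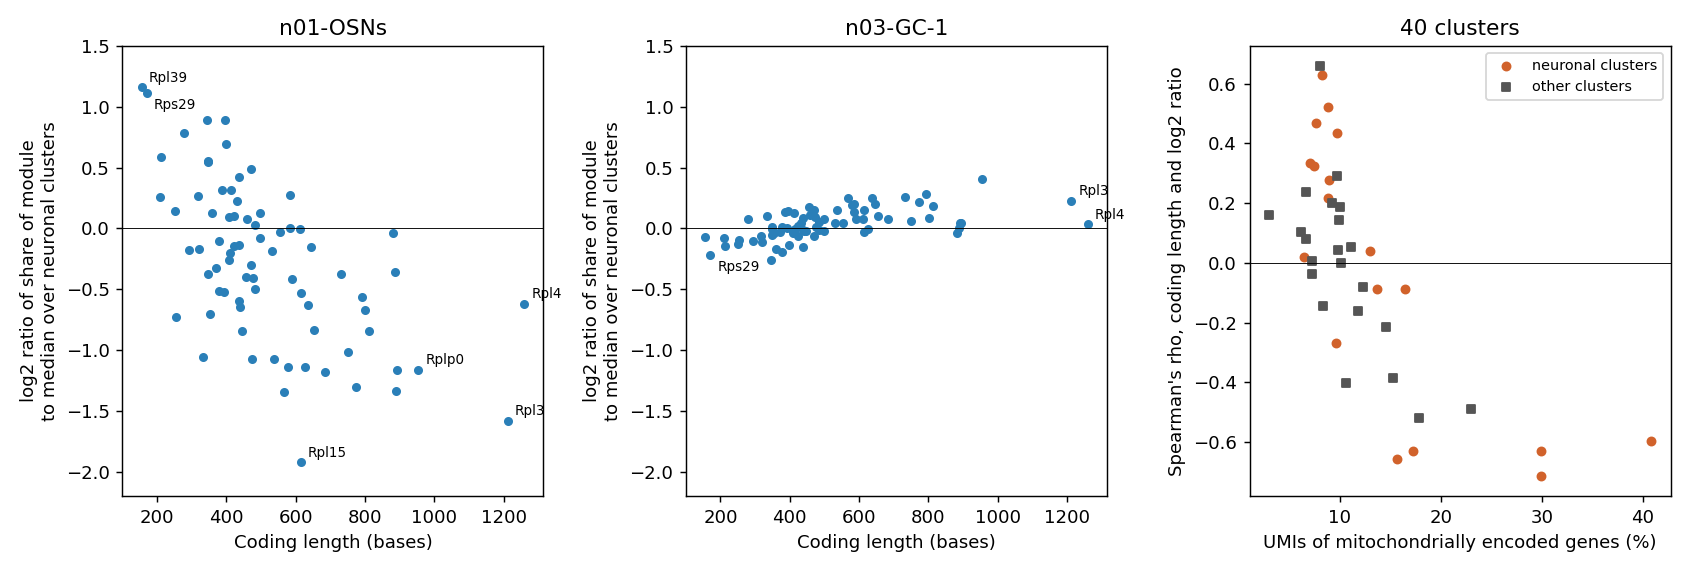
Log2 ratio of core members in olfactory sensory neurons (left) and in the granule cells of n03-GC-1 (middle) against coding length in bases, and (right) the Spearman correlation of coding length with the log2 ratio in each cluster against the mitochondrial share of UMIs in percent. Short members such as Rpl39 and Rps29 are above 0 and most long members below it in the sensory neurons (Spearman -0.597), the slope is the other way in n03-GC-1 (0.629), and the clusters with the highest mitochondrial shares, such as n01-OSNs at 40.8%, are at the negative end, while others, such as n18-EPL-IN at 16.5%, are near 0.

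Other clusters had the same tilt towards short members. The correlation was -0.713 in n14-GC-7, -0.658 in n06-Transition, -0.631 in n13-AstrocyteLike, -0.630 in n07-GC-2, -0.519 in OEC3, -0.490 in Astro3 and -0.403 in macrophages. The opposite tilt was found in myelinating oligodendrocytes (0.658), n03-GC-1 (0.629), n10-GC-4 (0.523), n02-PGC-1 (0.468) and n09-GC-3 (0.434). The 8 clusters under -0.4 all had at least 10.6% mitochondrial UMIs and the 5 clusters over 0.4 at most 9.75%. Between these limits were other clusters with a high mitochondrial share. EC2 (15.2%, median cell with 750.5 UMIs) was at -0.387, just short of the lower limit. Further from it were n18-EPL-IN (16.5%, 813 UMIs) at -0.087, MicroG3 (14.6%, 748 UMIs) at -0.215 and n17-M/TC-3 (13.7%, 865 UMIs) at -0.087. The median cell had 656 to 882 UMIs in 7 of those 8 clusters and 1630 in macrophages, and 1291 to 3322 in the 5 clusters; the part of RNA quality or depth in this tilt was not tested.

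The remaining named members followed the module more closely. Rpsa, the laminin receptor protein of the small subunit, was highest in monocytes at 1497 ± 91.8 CPM and took 0.431% of the module in EC1 and 0.913% in myelinating oligodendrocytes. Rps4x, the X-linked small-subunit gene, was highest in monocytes at 3071 ± 169 and took 0.516% of the module in n14-GC-7 and 1.32% in MicroG1. Rplp1 and Rplp2 were highest in n01-OSNs at 9662 ± 760 and 5331 ± 498, as were Rpl37a at 13723 ± 841, Rpl38 at 10519 ± 1319 and Rpl41 at 20750 ± 3026. Rps27 was highest in monocytes at 8647 ± 759 and Rpl37 in n01-OSNs at 6544 ± 504.

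Summed over lists, the elongation factors and other TOP mRNAs varied with the members across clusters, but single genes did not all do so. Fau, which codes for RPS30 fused to a ubiquitin-like part, was highest in n01-OSNs at 9106 ± 1098 CPM, followed by MicroG3 at 5358 ± 265 and monocytes at 5348 ± 525, and lowest in red blood cells at 315 ± 109. The summed levels of 9 elongation factors and 14 other TOP mRNAs had Spearman correlations of 0.814 and 0.901 with the nuclear share of the members over 40 clusters. Eef1a1, which delivers aminoacyl-tRNA, was highest in monocytes at 2616 ± 359, and Tpt1, a TOP mRNA of high abundance, was highest in n01-OSNs at 9100 ± 1543 against 1952 ± 181 in monocytes. Eef2, the translocation factor, was at 814 ± 68.0 in n04-Immature and 726 ± 90.4 in monocytes, and Eef1a2, a form of neurons and muscle, was at 267 ± 37.5 in n12-GC-6 and 37.0 ± 23.6 in monocytes.

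Genes that act upstream of the ribosome, and those for the mitochondrial ribosome, had weak correlations with the members across clusters. The 25 initiation factors had a Spearman correlation of 0.0981, the 25 ribosome biogenesis genes 0.0632, the 17 genes of mTORC1 and TOP mRNA control -0.222 and the 77 mitochondrial ribosomal protein genes 0.0439. Initiation factors and biogenesis genes were both highest in n04-Immature, at 7639 ± 254 and 1752 ± 90.8 CPM. The clusters share libraries and each value has the same denominator as the share, so these correlations carry no p.

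The effect of naris occlusion and of training was compared within 34 clusters that had at least 20 cells in every library, 14 of them neuronal. UMIs were summed per cluster and library and tested with edgeR's quasi-likelihood test over all genes, at a Benjamini-Hochberg adjusted p under 0.05. Of the 87 members, 84 were tested in at least 1 cluster and 81 in all 34, which gave 2836 member tests in each comparison, and Rpl10l, Rpl3l and Rpl39l passed the filter on low counts in none. Fewer cells of a subtype within a cluster and less RNA per cell cannot be told apart in such sums.

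No member passed the test in any of the 34 clusters after naris occlusion, after training or between the manipulations. With the replicate number, which marks the sex of the pool, as a block, 2 passed between training and naris occlusion, both lower after training: Rpl39 in n01-OSNs and Rpl15 in MicroG1. Over all genes, 0.0624% of 172986 tests were called between naris occlusion and control, 0.0931% between training and control and 0.178% between training and naris occlusion. The members' 0 of 2836 is to be read against these percentages, which hold for the test with all 6 libraries and no block. No percentage over all genes is given for the block or for leaving out a library, so those counts of calls cannot be set against all genes. At an unadjusted p under 0.05, 36, 32 and 95 member tests passed in the same order, which was 1.27%, 1.13% and 3.35% against 4.78%, 5.74% and 7.26% of all genes. DESeq2 also called 0 members in each of the 3 comparisons. Single libraries mattered, although leaving one out leaves a group of 1 library that is assumed to vary like the other groups: between training and naris occlusion, edgeR called 16 member tests without naris-occluded replicate 1, of which 13 were in OEC3 and higher after training, 6 without trained replicate 2 and 1 without trained replicate 1. Against control, it called 2 without naris-occluded replicate 1 and 2 without trained replicate 2. The median log2 fold change of the members was 0.0021, 0.016 and 0.0055, the middle 90% of values lay from -0.24 to 0.24, from -0.25 to 0.24 and from -0.27 to 0.29, and the median standard error was 0.165, 0.165 and 0.166.

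**Figure D4:**
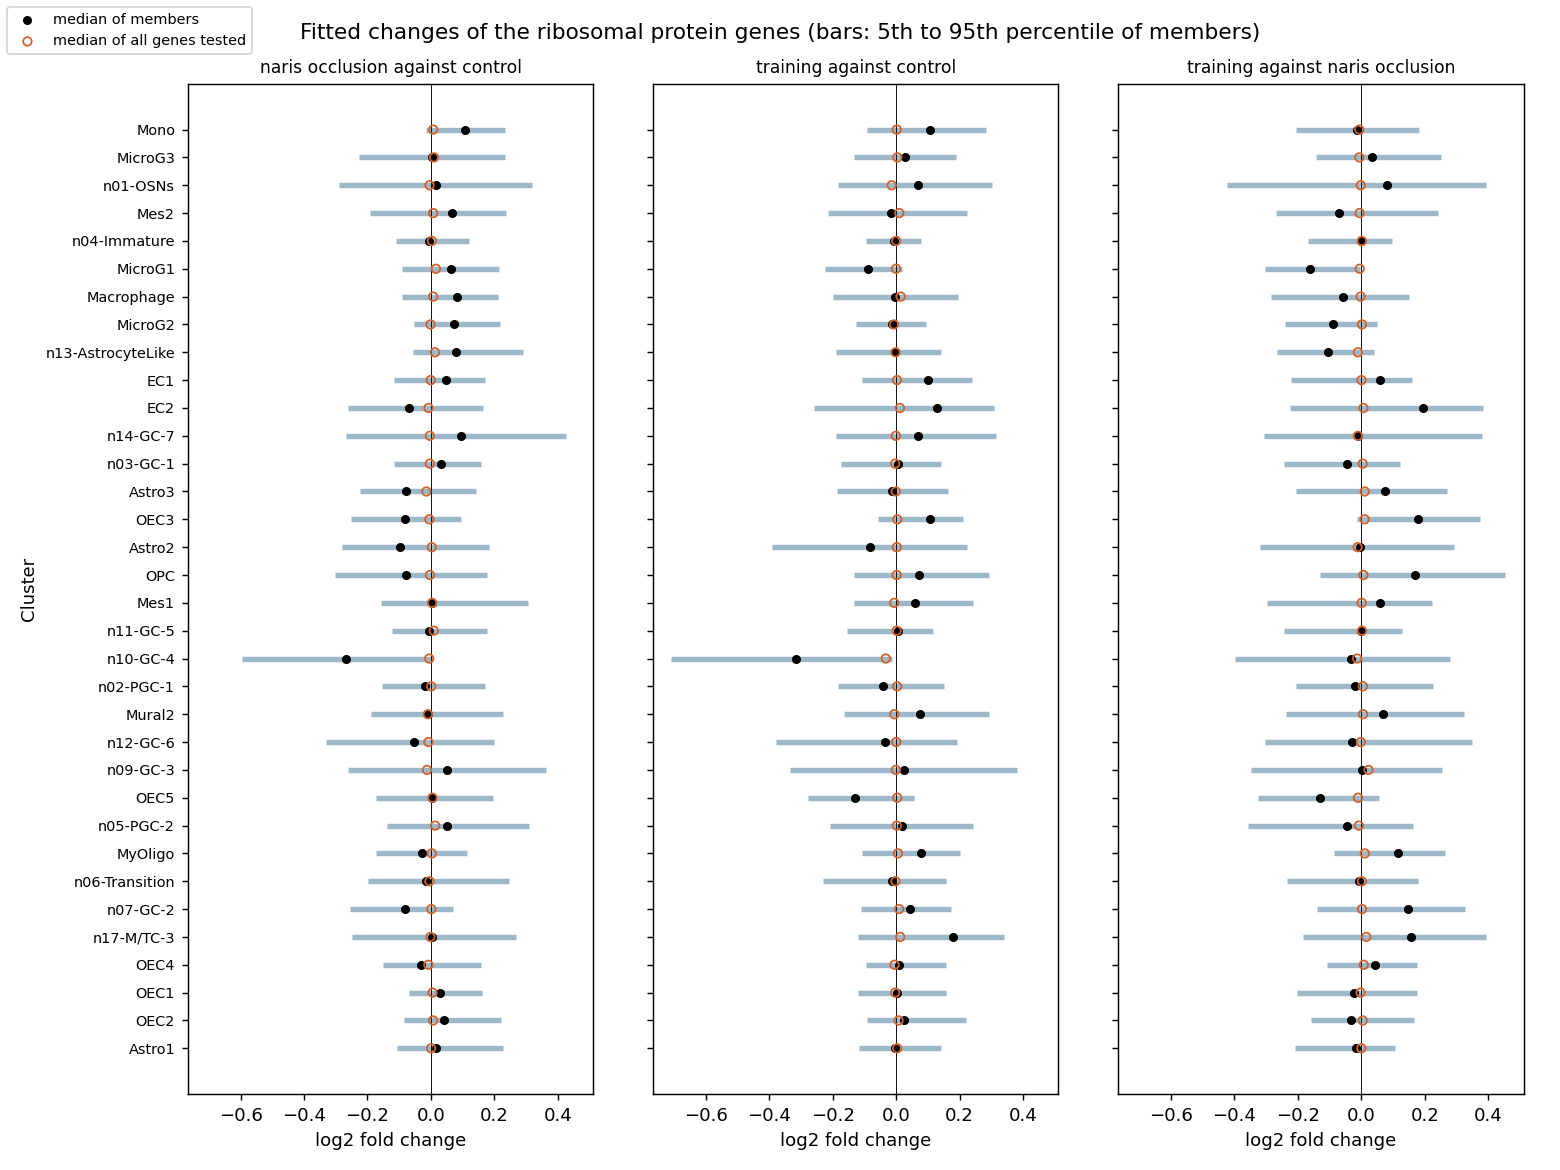
Median log2 fold change over the members tested in each of 34 clusters, for naris occlusion against control, training against control and training against naris occlusion, with bars from the 5th to the 95th percentile of members and open circles at the median of all genes tested. Most medians lie close to 0, and n10-GC-4 is lowest in both comparisons with control at -0.27 and -0.32.

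Medians over the members differed between clusters, and these shifts were not tested. Against control, the median over members ran from -0.27 in n10-GC-4 to 0.11 in monocytes after naris occlusion and from -0.32 in n10-GC-4 to 0.18 in n17-M/TC-3 after training. The share of all UMIs in n10-GC-4 was 10.1% and 8.53% in control, 6.93% and 8.40% in naris-occluded and 8.13% and 7.39% in trained libraries. This cluster had 234 cells, as few as 26 in a library, and control replicate 1 was the highest library; without it the medians were -0.11 and -0.19. Between training and naris occlusion the medians ran from -0.16 in MicroG1 to 0.19 in EC2. The middle 90% of members included 0 in monocytes, n17-M/TC-3 and EC2 in these comparisons and in n10-GC-4 after naris occlusion. It did not include 0 in n10-GC-4 after training (-0.71 to -0.014) or in MicroG1 between training and naris occlusion (-0.30 to -0.0045). This range is a spread over members, which share the libraries of a cluster and are not replicates. The clusters named here were picked for their extreme medians. Between replicate 2 and replicate 1, over all groups, the medians ran from -0.19 in n06-Transition to 0.14 in n05-PGC-2, a range of similar size. The comparisons share libraries and are given side by side.

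The share of all UMIs did not overlap between the groups in a minority of clusters. Both naris-occluded libraries were above both control libraries in 5 of 34 clusters and below in 4, where 16.9% and 17% of all gene tests did so. Both trained libraries were above control in 9 clusters and below in 3, with 17.6% and 17.3% of all gene tests, and above the naris-occluded libraries in 5 and below in 1, with 18% and 17.7%. With the nuclear denominator, the counts were 4 above and 5 below, 3 and 3, and 5 and 1. The 9 clusters in which training exceeded control were thus 3 without the mitochondrial UMIs. Trained replicate 1, the library with the fewest UMIs per cell, had the highest share of the 6 libraries in 17 of 34 clusters with both denominators.

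Differences of shares between groups ran from -1.65 to 1.23 percentage points over clusters and comparisons. The median over clusters was 0.118 percentage points for naris occlusion and 0.141 for training, each minus control, and -0.0329 for training minus naris occlusion. With the nuclear denominator these medians were -0.00403, 0.121 and 0.0373, so the first and the last changed sign, and the difference between training and naris occlusion reached 2.03 in EC2 and 1.56 in OEC3. In monocytes the share was 20.5% and 22.2% in control against 22.6% and 22.5% after occlusion. In EC2 it was 11.5% and 11.3% in control, 10.99% and 10.9% after occlusion and 12.5% and 11.8% after training, so both comparisons with control separated the libraries, in opposite directions. In oligodendrocyte precursors the libraries gave 8.63% and 8.56%, 8.50% and 8.29%, and 9.12% and 9.11%, the same order of groups.

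Members with the lowest adjusted p, picked after their values were seen, were the following. For training against naris occlusion it was Rpl39 in n01-OSNs, at 8513 and 9489 CPM (here per all UMIs, with TMM factors) in naris-occluded libraries and 5452 and 6199 in trained libraries, with 6340 and 6867 in control. Its log2 fold change was -0.63 ± 0.175 (SE), with an adjusted p of 0.114 in edgeR's test, which missed the threshold; the groups did not overlap. It passed with the replicate block, with the module total as library size, with only cells of at least 1000 UMIs and without trained replicate 2, and in no other alternative. In OEC3, Rpl39 and Rps29 had log2 fold changes of 0.45 ± 0.132 and 0.36 ± 0.111, with adjusted p of 0.140 and 0.163 in edgeR. For naris occlusion against control it was Rpl22 in n17-M/TC-3, at -0.52 ± 0.258 (adjusted p = 0.431), and for training against control Rps27l in EC1, at -0.38 ± 0.145 (adjusted p = 0.424). Rps27l in EC1 had 453 and 413 CPM on that scale in control and 330 and 334 in trained libraries, which did not overlap.

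Named members had small median changes over clusters. For naris occlusion against control the medians were 0.10 for Rplp0, -0.05 for Rplp1, 0.01 for Rplp2, -0.02 for Rpsa and 0.07 for Rps4x, and Rplp0 was above 0 in 26 of 34 clusters. Of the paralogs, Rpl22l1 was at -0.04, Rpl36al at -0.03 and Rps27l at -0.10 (31 clusters), beside Rpl22 at 0.01, Rpl36a at -0.04 and Rps27 at 0.01. Rps29, Rpl41, Rpl37a, Rpl37 and Rpl38 had medians of -0.09, -0.04, -0.03, -0.05 and -0.06. For training against control these 5 were at -0.04, 0.01, 0.05, 0.03 and -0.03, Rplp0 at -0.02 and Rpl22l1 at -0.04. Against control, Rps27rt was at 0.15 after naris occlusion, above 0 in 32 of 34 clusters, and at -0.06 after training, above 0 in 12. Between training and naris occlusion Rps27rt was at -0.21, above 0 in 3 of 34 clusters. In that comparison Rplp0 was at -0.15, above 0 in 4, and Rpl37 at 0.08, above 0 in 31. None of these members was called in any cluster in these comparisons, and the median standard errors were 0.134 to 0.243.

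Translation genes outside the members were not called either, in lists where the percentages of all gene tests called (0.0624%, 0.0931% and 0.178%) would give few calls or none. In each of the 3 comparisons, 0 of 263 tests of elongation factors, 443 of other TOP mRNAs, 740 of initiation factors, 383 of ribosome biogenesis, 259 of mTORC1 and TOP control and 1860 of mitochondrial ribosomal proteins passed. The nuclear RNA Malat1 passed in 1 cluster after naris occlusion (n14-GC-7, 1.33 ± 0.274) and was lower in 5 clusters after training, with the largest change in Astro3 at -1.13 ± 0.220, and in 4 between training and naris occlusion. Meg3 and Snhg11, also nuclear RNAs, were higher in n17-M/TC-3 after naris occlusion, at 1.10 ± 0.247 and 1.16 ± 0.244. Of 249 tests of immediate early and stress genes, 4 passed for naris occlusion against control, 3 as higher and 1 as lower, and 1 for training against control. After naris occlusion Fos was higher in 2 clusters, with the largest change in EC2 at 3.25 ± 0.642, and lower in 1, at -2.27. Between training and naris occlusion 6 passed: Egr1 was higher after training in 3 clusters and Nr4a1 in 2, and Fos was lower in EC2 at -2.91 ± 0.705. Their part in the shares was not tested.

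Replicate 2 was compared with replicate 1 over the 3 groups, 3 libraries against 3, with the group as a term; this is a comparison of female with male pools, and sex cannot be told apart from anything else that the replicate number stands for. A total of 6 member tests passed, 0.212% of 2836, where 0.28% of all gene tests were called in either direction and 0.197% as higher in replicate 2; the members' share is thus near the background. All 6 were the same gene, Rps27rt, in 6 clusters, and it was higher in replicate 2. DESeq2 called 1 member test. Without control replicate 1 edgeR called 0, and without control replicate 2, naris-occluded replicate 1 or naris-occluded replicate 2 it called 1. At an unadjusted p under 0.05, 3.74% of member tests and 5.39% of all gene tests passed.

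In OEC4, Rps27rt had 438, 443 and 441 CPM (per all UMIs, with TMM factors) in replicate 1 of control, naris-occluded and trained mice and 613, 706 and 591 in replicate 2. The groups did not overlap, and the log2 fold change was 0.53 ± 0.0933 (adjusted p = 0.00056, edgeR). In n03-GC-1, MicroG1, n04-Immature, Astro1 and MicroG2 it was 0.51 ± 0.117, 0.47 ± 0.117, 0.44 ± 0.0983, 0.47 ± 0.0976 and 0.48 ± 0.121, with adjusted p of 0.00856, 0.0200, 0.0282, 0.0333 and 0.0492 in edgeR. It was above 0 in 34 of 34 clusters, which share the same 6 libraries, with a median of 0.43. Rps27 in the same 6 clusters was at 0.02 to 0.16 and not called.

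Rps27rt is a copy of Rps27 without introns. Rps27 lies at chr3:90212667-90213648 and Rps27rt at chr9:114982366-114982739 (RefSeq, GRCm38.p6). The sequences below are shown because they give the place where the genes part: 30 bases on the sense strand at the end of the first coding exon of Rps27, with capitals from the first base that differs between them.
Rps27: tccctacgagaacatgcctGTGAGTTCCTT
Rps27rt: tccctacgagaacatgcctCTCGCAAAGGA
The capitals of Rps27 are the start of its first intron, and Rps27rt goes on as the spliced Rps27 mRNA does. The coding sequences have 255 bases each and 0 mismatches, and the 3′ untranslated regions of 54 and 56 bases have 0 mismatches over their shared length, so that 3′ reads of one and the other are hard to tell apart and both counts are uncertain. Over the cells of the 40 clusters, Rps27rt took 20.3% of the UMIs of the pair.

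Rows named as ribosomal protein pseudogenes moved the same way. All 16 rows were higher in replicate 2 in every group, and in 15 rows all 3 libraries of replicate 2 were above all 3 of replicate 1. The share of all genes that separate in this way is not given here. Of 349 tests over 14 rows, 88 were called higher in replicate 2 and 0 lower, with a median log2 fold change of 0.60. Of all gene tests, 0.197% were called higher in replicate 2. Rps18-ps3 was called in 21 clusters, with the largest change in oligodendrocyte precursors at 1.52 ± 0.286, Rpl9-ps6 in 20, Rpl13a-ps1 in 15, Rpl27-ps3 in 13 and Rpl13-ps3 in 11. Of the parents of these 5 rows, 4 had similar levels in both replicates: 1220 and 1225 CPM (per all UMIs) for Rps18, 1051 and 1064 for Rpl9, 1721 and 1727 for Rpl13a and 1953 and 1963 for Rpl13, as means of replicate 1 and replicate 2. The remaining parent, Rpl27, had 581 and 662 CPM and was higher in replicate 2 in every group. Pseudogene UMIs per 1000 member UMIs were 16.5, 16.1 and 15.0 in replicate 1 and 21.7, 23.1 and 27.1 in replicate 2 of control, naris-occluded and trained mice. Counts of these rows are uncertain, since they share sequence with their parents.

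**Figure D5:**
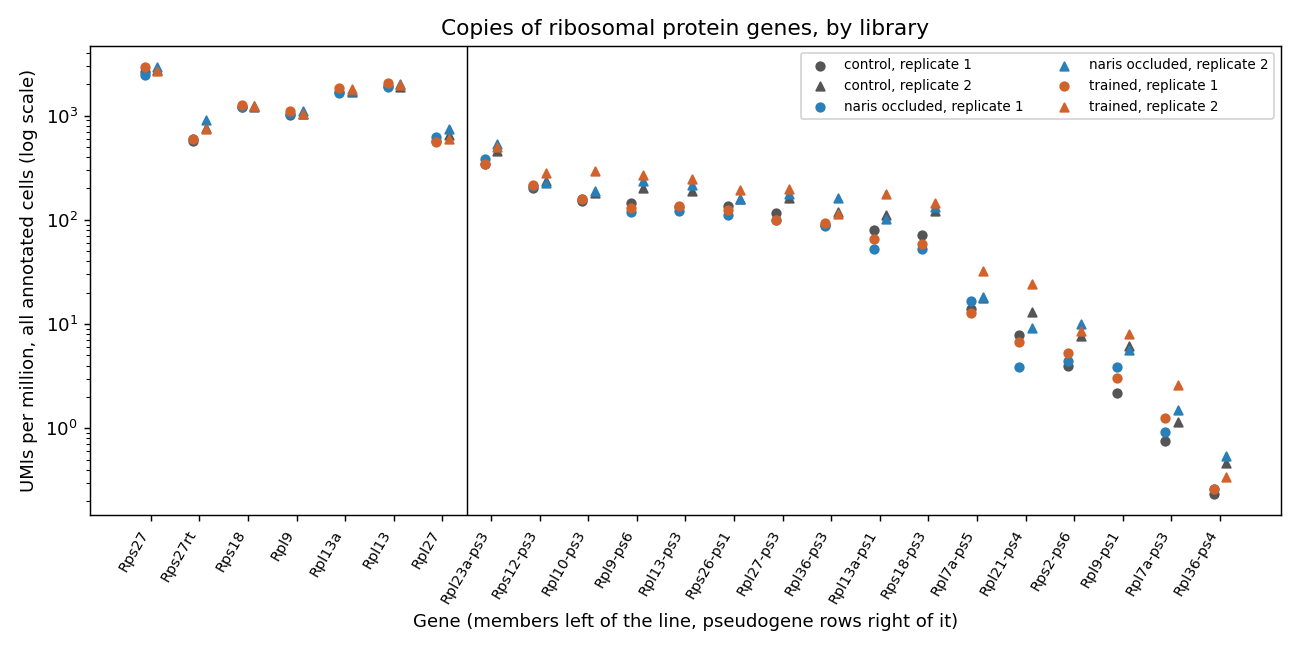
CPM (per all UMIs), on a log scale, for members of the family with copies (left of the line) and for pseudogene rows (right of it), with 1 point for each library. Members were counted over the cells of the 40 clusters, and pseudogene rows over all annotated cells. Rps27rt and the pseudogene rows are higher in replicate 2 of every group, as is the parent gene Rpl27 by less, while Rps18, Rpl9, Rpl13a and Rpl13 differ little between the means of the replicates.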

How the data were processed

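The authors deposited UMI counts per gene and cell for 6 droplet libraries, made with Cell Ranger 2.0.0 and handled in Seurat 2.2.1 on mm10 (GRCm38), as given in the submitters' processing notes; per the study's methods, cells with fewer than 200 genes and doublets had been removed. The deposited cell annotations gave library and cluster. The library of each cell was taken from the annotation column for library, in which replicates 1 and 2 of the trained group are swapped against the prefix of 17275 cell names. UMIs were summed per cluster and library (raw counts, not normalized). Shares are percent of all UMIs, and levels in clusters are CPM, counts per 1e+06 UMIs of nuclear genes; levels over a library and beside a test are CPM per all UMIs, with TMM factors beside a test.

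Counts were tested in edgeR 4.0.16 (R 4.3.3; quasi-likelihood, TMM, filterByExpr) across all genes in 34 clusters with at least 20 cells in every library; adjusted p are Benjamini-Hochberg over all genes tested in a cluster, called under 0.05. DESeq2 1.42.0, other scalings, no low-count filter, cells with at least 1000 UMIs, a replicate block and leaving out each library were alternatives. Python 3.11.15 made the shares. The test was checked on simulated counts. Named members were the outlying members, called members, the 6 with the most UMIs and 12 set names (stalk genes, Rpsa, Rps4x and paralog pairs). The members and lists were chosen with earlier results of these data known. The 2 libraries of a group are pools, so p-values measure the spread between pools. Replicate numbers mark a pool's sex and not shared animals. Some genes are not reported here.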

Additional observations from a re-analysis of the deposited data

Results flagged for a closer look

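In some clusters both libraries of a group lay above or below both libraries of the other group in their share of ribosomal protein UMIs, and other clusters moved the opposite way under the same contrast. These differences between clusters were not tested, and 16.9% to 18% of single genes separate in one direction by the same criterion. Values are differences of group means in percentage points of all UMIs.

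For naris occlusion minus control, the share was higher in monocytes (1.18), MicroG1 (0.683), n09-GC-3 (0.554), n03-GC-1 (0.354) and OEC2 (0.190). It was lower in n10-GC-4 (-1.65), EC2 (-0.505), OPC (-0.198) and n07-GC-2 (-0.188). With nuclear UMIs, n03-GC-1 and OEC2 no longer separated, while n01-OSNs did as higher (1.12) and OEC3 as lower (-0.713).

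For training minus control, the share was higher in n14-GC-7 (0.839), n17-M/TC-3 (0.783), EC1 (0.747), EC2 (0.723), OEC3 (0.553), OPC (0.524), n13-AstrocyteLike (0.255), n05-PGC-2 (0.128) and Mes1 (0.0579). It was lower in n10-GC-4 (-1.55), Astro2 (-0.552) and OEC5 (-0.481). With nuclear UMIs, only EC2, OEC3 and OPC of the 9 higher clusters still separated, the 3 lower ones did too, and the difference in Mes1 changed sign (-0.0227).

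For training minus naris occlusion, the share was higher in EC2 (1.23), OEC3 (0.928), OPC (0.723), MyOligo (0.627) and n07-GC-2 (0.547) and lower in MicroG1 (-1.32), and the same 6 clusters separated with nuclear UMIs. Control libraries are shared between the first and the second contrast.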

How the results depend on the processing

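The count of member calls for naris occlusion against control was 0 and remained 0 in 11 of 12 alternatives; leaving out a library gave 0 to 2 calls, the 2 being Rpl15 and Rps27rt in MicroG2 without naris-occluded replicate 1. For training against control it was 0 in 11 of 12 and 0 to 2 without a library, the 2 in EC1 without trained replicate 2. For training against naris occlusion it was 0 in 6 of 12; the module total as library size gave 2 calls (Rpl39 and Rpl41 in n01-OSNs), cells with at least 1000 UMIs 1 (Rpl39 in n01-OSNs) and leaving out a library 0 to 16, the 16 without naris-occluded replicate 1, of which 13 were in OEC3. The replicate block gave 2 calls there, Rpl39 in n01-OSNs and Rpl15 in MicroG1, and the block changed no other count. No percentage of all genes called is given for the alternatives, so their counts of member calls cannot be set against it. The replicate number marks the sex of the pool in every group and not shared animals; deviations of same-numbered libraries correlated at 0.102, 0.119 and 0.0844 on average over 34 clusters, from -0.264 to 0.334 in single clusters. For replicate 2 against replicate 1, the 6 calls became 3 with no condition term, 1 with DESeq2 and 0 to 8 without a library. For Rps27rt, the alternatives were read in the 6 clusters where it had been called as higher, 78 pairs of cluster and alternative. Its log2 fold change was 0.29 to 0.64 in these pairs, and it missed the threshold in 36 of them. The clusters were picked for that call and the alternatives reuse the same counts, so a value above 0 in all 78 is no independent support. The share by library had a mean of 9.21% and became 10.4% with nuclear UMIs and 9.53% as a mean over cells; the median over clusters of 8.44% became 9.18% with nuclear UMIs. The 35 outlying pairs became 4 at 3-fold, 23 in control replicate 2 alone and 12 in trained replicate 1 alone; leaving out a library gave 32 to 36 (alternative chosen after seeing the data). The cause was not tested.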
